A study of Homo sapiens with 4 samples.

Results

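The guanylate-binding protein (GBP) genes GBP1, GBP2, GBP3, GBP4 and GBP5 were followed in H1299 and HCT116 cells. Members were the rows of the deposited gene table whose name, before any number, equalled one of these 5 symbols, which gave 5 of 43296 gene names and 7 of 61838 gene features. A pair of features carried a number after the name, GBP3|1 and GBP5|1, and are described apart from the unnumbered features. What the number stands for was not given in the sources used here. H1299 was established from a non-small cell carcinoma of the lung and HCT116 from a carcinoma of the colon. Control cells of each line received the solvent DMSO. Treated cells received decitabine (DAC), an inhibitor of DNA methyltransferases, at 500 nM for 72 h together with SB939, an inhibitor of histone deacetylases, at 500 nM for 18 h, with the medium renewed every 24 h. Per the labels all cultures were at passage 5 to 10. Each line and treatment was 1 library of 5′ single-cell RNA sequencing, so no difference below has a replicate check, no test was made, and every interval is a 95% interval for counting error only. The treated libraries are called DAC+SB.

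GBPs are large GTPases of the dynamin superfamily that bind as dimers and polymers to membranes around intracellular bacteria and parasites, and they take part in inflammasome activation and in resistance to enveloped viruses. They are known above all as genes induced by interferon gamma through transcription factors such as IRF1, and epithelial cells express little of them without that signal. GBP1, GBP2 and GBP5 carry a C-terminal signal for a lipid anchor (prenylation), and GBP2 and GBP5 are also known to restrain furin, the protease that matures viral envelope proteins. Copies of LTR12C, the long terminal repeat of the endogenous retrovirus ERV9, have been described as promoters of some human genes, GBP2 and GBP5 among them.

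The 5 genes lie in a cluster on chromosome 1, all on the minus strand, with GBP7 between GBP2 and GBP4. On GRCh38 with the GENCODE 29 annotation, GBP3 spans 89006666 to 89022894, GBP1 89052319 to 89065360, GBP2 89106132 to 89150456, GBP4 89181148 to 89198932 and GBP5 89258950 to 89272804. The 5 genes thus occupy 266 kb. GBP2 has 4 annotated transcripts with 4 starts. Its protein-coding transcript begins at 89126114, whereas another, annotated as subject to nonsense-mediated decay, begins 24.3 kb upstream at 89150456, inside the span of the neighbouring gene GBP7. GBP5 has 2 protein-coding transcripts, whose starts at 89270863 and 89272804 are 1.94 kb apart.

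Promoters of 3 of the 5 members were found in the RefSeq table (GRCh38.p14): GBP1, GBP3 and GBP4. The symbols GBP2 and GBP5 had no match among the promoters used, which does not show that RefSeq lacks these genes. The windows run from 250 bases before to 50 bases after the gene's start, are written 5′ to 3′ on the gene's strand, and are shown because they hold the elements through which interferon is known to act on this family. Capitals mark matches, on either strand, to the core of the interferon-stimulated response element (GAAA, any 2 bases and GAAA, or TTTC, any 2 bases and TTTC on the other strand), which IRF factors bind, or to the gamma-activated site (TTCNNNGAA), through which interferon gamma is known to act. The windows are chr1:89065159-89065458 for GBP1, chr1:89022817-89023116 for GBP3 and chr1:89198893-89199192 for GBP4.
GBP1: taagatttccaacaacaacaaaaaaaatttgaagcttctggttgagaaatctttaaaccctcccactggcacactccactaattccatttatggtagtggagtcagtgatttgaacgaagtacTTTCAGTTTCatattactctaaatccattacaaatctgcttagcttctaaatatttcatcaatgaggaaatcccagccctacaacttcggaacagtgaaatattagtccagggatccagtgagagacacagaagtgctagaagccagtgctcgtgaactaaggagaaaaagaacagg
GBP3: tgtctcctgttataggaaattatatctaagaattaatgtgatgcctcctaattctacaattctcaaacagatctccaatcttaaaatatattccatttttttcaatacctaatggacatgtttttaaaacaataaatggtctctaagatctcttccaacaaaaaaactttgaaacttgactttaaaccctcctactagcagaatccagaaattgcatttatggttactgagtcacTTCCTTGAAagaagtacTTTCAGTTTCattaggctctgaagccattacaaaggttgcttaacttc
GBP4: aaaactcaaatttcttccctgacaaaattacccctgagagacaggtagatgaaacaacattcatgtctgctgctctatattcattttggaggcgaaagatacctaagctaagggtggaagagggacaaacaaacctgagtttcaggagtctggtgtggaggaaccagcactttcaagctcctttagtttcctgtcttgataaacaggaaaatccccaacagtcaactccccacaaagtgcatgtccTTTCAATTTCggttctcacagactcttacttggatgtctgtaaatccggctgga
All 3 windows held 1 match to the response element core, which 3.57% of 35116 promoter windows of 300 bases held. In GBP1 and GBP3 the letters were the same, TTTCAGTTTC, within a run of 19 bases common to both windows, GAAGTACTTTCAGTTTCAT. The first base of the match lay 127 bases before the start in GBP1 and 4 bases before it in GBP4, and was base 3 of the transcript in GBP3. These starts are those of RefSeq. The GENCODE gene start, the outermost start of the gene's transcripts, lies 152 bases further upstream for GBP1. By GENCODE the GBP1 match thus falls inside the transcript. For GBP3 the gene start lies 28 bases further upstream and belongs to a transcript annotated as subject to nonsense-mediated decay. A protein-coding GBP3 transcript starts at the RefSeq start, 89022866. The GENCODE start of GBP4, 89198932, lies downstream of its RefSeq start, 89198942. GBP3 alone of the 3 held a match to TTCNNNGAA, the form of gamma-activated site searched for: TTCCTTGAA, 15 bases before its RefSeq start. Counted from the outermost GENCODE start, that match lies inside the transcript. Of all windows 7.66% held such a match. These matches are letters in a window and were not shown to be bound. Gamma-activated sites with other letters were not searched for, so the GBP1 and GBP4 windows may hold one.

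The libraries held 3578 to 4327 cells and 38927267 to 64524196 counts of genes and transposable elements. The median was 8449 counts per cell in HCT116 DAC+SB and 15784.5 to 17369.5 in the other libraries. Between 60 and 71 cells of each library had a barcode that also occurred in another library. The 10 markers of H1299 summed to 2952 and 1481 CPM (counts per 1000000 gene and element counts of the library) in H1299 without and with DAC+SB, against 281 and 380 in HCT116. The 10 markers of HCT116 summed to 188 and 105 CPM in HCT116, against 0.527 and 21.7 in H1299. By these sums each line was above the other on its own list. VIM alone gave 2282 of the 2952 CPM in H1299 DMSO. Not every gene followed its sum. COL6A2, a marker of H1299, was lower in H1299 DMSO than in HCT116 DMSO. LGALS4, a marker of HCT116, was higher in treated H1299 than in treated HCT116. VIM, COL6A2 and LGALS4 were named after their values were seen.

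GBP2 and GBP5 were higher with DAC+SB in both lines, GBP3 was lower with DAC+SB in H1299, and GBP1 and GBP4 did not exceed 3 counts in any library. H1299 had 2 counts of GBP2 with DMSO against 250 with DAC+SB, and HCT116 had 0 against 429. For GBP5 these were 8 against 112 and 2 against 231. A gene is called higher here at a ratio of CPM of at least 4 with at least 100 counts in 1 library of the line. By that rule 2 members were higher in each line, among 11.0% of 14610 genes in H1299 and 9.63% of 13539 genes in HCT116. No member was lower by it, against 0.349% and 3.69% of genes. The other members did not reach 100 counts, so the 2 were the only ones the rule could call. Both reached that minimum through the DAC+SB library alone, so they could only be called higher, and nothing is read from these counts against the shares over all genes. At 2-fold the members called were again GBP2 and GBP5, both higher, where 18.3% of H1299 genes were higher and 7.34% lower. In HCT116 16.2% were higher and 20% (2706 of 13539) lower. With a minimum of 20 counts the 4-fold rule called 19.9% of H1299 genes higher. Of HCT116 genes it called 18.6% higher, with 3.46% lower, and GBP2 and GBP5 were higher in both lines.

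**Figure D1:**
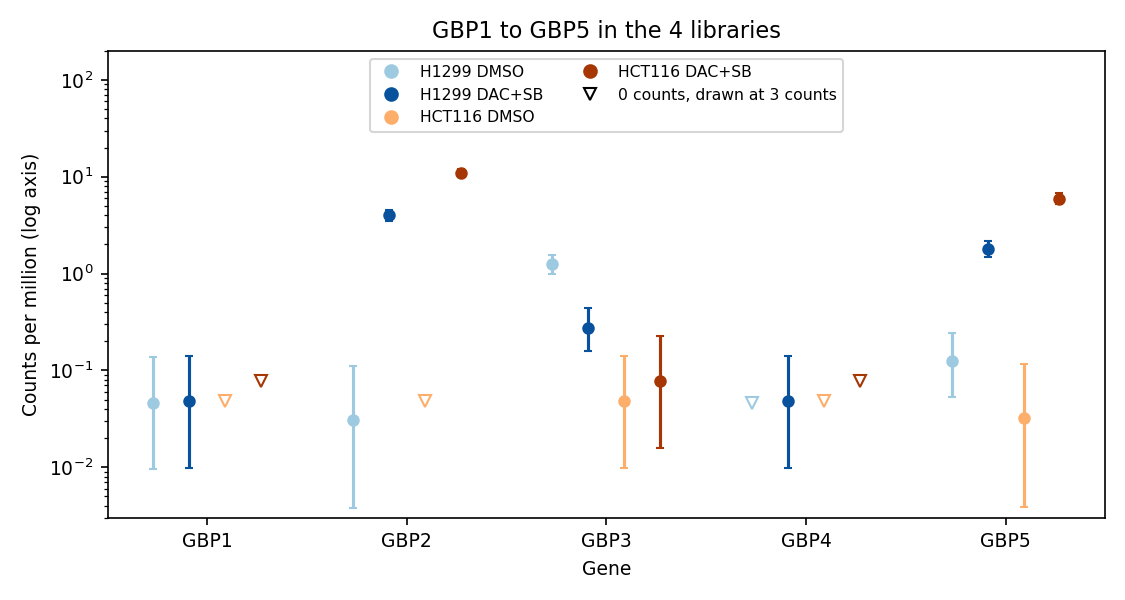
CPM (log axis) of the 5 genes in the 4 libraries, with exact Poisson 95% intervals as bars, and libraries at 0 counts drawn as open triangles at 3 counts. GBP2 and GBP5 stand highest in the DAC+SB libraries, at 11.0 and 5.93 CPM in HCT116 and 4.0 and 1.79 CPM in H1299, and GBP3 stands highest in H1299 DMSO, at 1.26 CPM.

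GBP2, a prenylated member of the Golgi and of pathogen vacuoles, was at 0.0310 CPM (0.00375 to 0.112) in H1299 DMSO and 4.0 CPM (3.52 to 4.53) in H1299 DAC+SB. In HCT116 it was at 0 with DMSO, where 0 counts allow up to 0.0479 CPM (3 counts), and at 11.0 CPM (10.0 to 12.1) with DAC+SB. Both treated libraries lay above both controls, and the interval of neither treated library reached a control. The ratio was 129 (35.4 to 1073) in H1299, and in HCT116 GBP2 was at least 230-fold higher. With genes at 0 set to 3 counts, GBP2 ranked 244 of 14610 genes by its ratio in H1299 and 193 of 13539 in HCT116. The treated HCT116 level was 2.75 times (2.35 to 3.23) the treated H1299 level. All GBP2 counts lay in the unnumbered feature. Of genes at least 4-fold higher with 100 or more and under 1000 counts in the treated library, 22.5% of 1412 in H1299 and 11.5% of 1134 in HCT116 likewise had no numbered feature there. A single further count, in HCT116 DAC+SB, carried the joined name GBP2_GBP7, which no other library listed.

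GBP5, the member known to promote assembly of the NLRP3 inflammasome, was at 0.124 CPM (0.0535 to 0.244) in H1299 DMSO and 1.79 CPM (1.48 to 2.16) in H1299 DAC+SB. It was at 0.0319 CPM (0.00387 to 0.115) in HCT116 DMSO and 5.93 CPM (5.19 to 6.75) in HCT116 DAC+SB. The order of the libraries was that of GBP2 among the treated ones, and the intervals of the DMSO libraries overlapped. The ratio was 14.5 (7.10 to 34.3) in H1299 and 186 (50.9 to 1544) in HCT116, ranks 909 and 254 among the genes compared. The log2 ratio of H1299 minus that of HCT116 was -3.68 (-5.94 to -1.42, normal approximation to the log of a count). The treated HCT116 level was 3.31 times (2.63 to 4.18) the treated H1299 level. For GBP2 the same difference was not computed, since its HCT116 ratio is a bound.

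The 2 features of GBP5 differed in their shares of its counts. GBP5|1 was listed in neither DMSO library and held 40 counts in H1299 DAC+SB and 138 in HCT116 DAC+SB. In H1299 the unnumbered feature had 8 counts with DMSO and 72 with DAC+SB, which gave a ratio of 9.30 (4.48 to 22.4). The 2 and 93 counts in HCT116 gave 74.8 (20.1 to 627). These counts were under 100, so no call was made on the feature by itself. GBP5|1 made up 35.7% (26.9 to 45.3, Clopper-Pearson) of GBP5 counts in H1299 DAC+SB and 59.7% (53.1 to 66.1) in HCT116 DAC+SB. Over all genes at least 4-fold higher with 100 or more and under 1000 treated counts, those without a numbered feature included, the median share of counts in numbered features was 39.9% in H1299 and 61.4% in HCT116, so the shares of GBP5 and their order between the lines were near those of such genes. A numbered feature was listed in a library from 10 counts upward, so up to 9 counts of GBP5|1 could be missing from a DMSO library if that minimum was all that decided a listing. With 9 counts added there, the log2 ratio of GBP5 was 2.77 in place of 3.85 in H1299, and 5.08 in place of 7.54 in HCT116. The features carry no coordinates in the table, so neither could be placed at an annotated start or at an LTR12 copy.

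GBP3, a cytosolic member, was the one best detected without treatment, and in H1299 alone. It had 81 counts (1.26 CPM, 0.997 to 1.56) in H1299 DMSO and 17 counts (0.272 CPM, 0.159 to 0.436) in H1299 DAC+SB, and the intervals did not overlap. The level was 4.61-fold (2.71 to 8.30) lower with DAC+SB. GBP3 stayed under the minimum of 100 counts. With a minimum of 20 counts it was the 1 member called lower in H1299, where 0.582% of 20097 genes were. With 9 counts given to its unlisted numbered feature with DAC+SB, the log2 ratio was -1.59 in place of -2.20, which ends that call. Of the 81 counts 15 lay in GBP3|1, which no other library listed, and the unnumbered feature alone had 66 counts with DMSO and 17 with DAC+SB, 3.76-fold (2.18 to 6.83) lower. HCT116 had 3 counts of GBP3 in each library, and no ratio was computed. Under DMSO the H1299 level was 26.2 times (8.66 to 130) that of HCT116.

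GBP1, the member long used as a marker of the interferon gamma response, had 3 counts in each H1299 library and 0 in each HCT116 library. GBP4 had 3 counts in H1299 DAC+SB and 0 in the other libraries. Neither exceeded the level of 3 counts, which was 0.0465 to 0.0771 CPM, and a change of either was not detectable at this depth. The remaining genes of the family were as low. GBP6 had 1 count in treated H1299, 2 in treated HCT116 and 0 with DMSO, GBP7 appeared only in the joined name above, and the pseudogene GBP1P1 was not analysed here. The 2 members called higher are not neighbours of each other, since GBP7 and GBP4 lie between GBP2 and GBP5.

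The genes on either side of the cluster were compared as a description of the region. All 8 of them had at least 100 counts in both lines and none was 4-fold higher or lower. Of all genes, 11.0% were higher and 0.349% lower in H1299, and 9.63% and 3.69% in HCT116. The median log2 ratio of the 8 was -0.36 in H1299 and -0.72 in HCT116, against -0.07 and -0.23 over all genes compared. GTF2B, which encodes the general transcription factor TFIIB, was the highest in both lines, with 1.08 (0.98 to 1.19) for H1299 and 1.99 (1.91 to 2.07) for HCT116. The HCT116 value lay just under 4-fold and passed it with gene counts alone as the denominator (2.06), with median-of-ratios scaling (2.30), without the 5% of cells with most counts (2.02) and as a mean over cells (2.11). The lowest were LRRC8D in H1299, at -1.28, and LRRC8C in HCT116, at -1.10, which encode subunits of a volume-regulated anion channel.

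**Figure D2:**
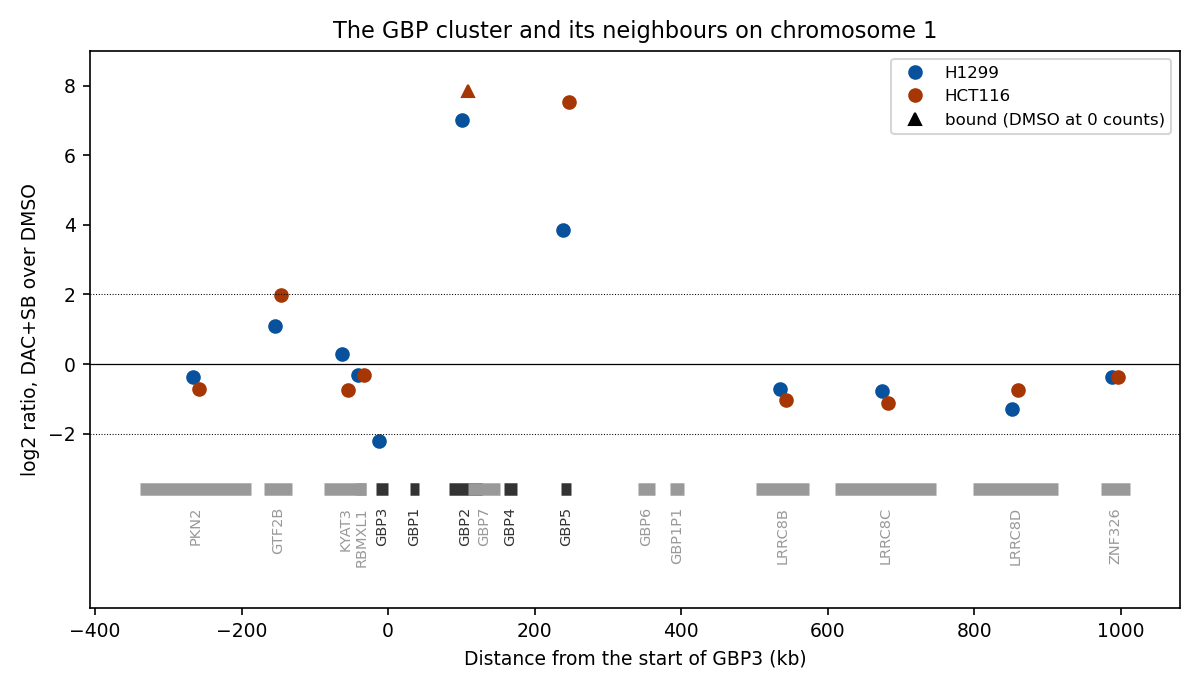
The log2 ratio of DAC+SB over DMSO of each gene with over 3 counts in a line, at its distance in kb from the start of GBP3, with gene spans as bars (members dark, other genes grey) and dotted lines at 4-fold. GBP2 and GBP5 lie above 4-fold in both lines, GBP3 lies at -2.20 in H1299, and none of the 8 flanking genes passes either line, GTF2B in HCT116 lying just under it at 1.99. KYAT3 is named CCBL2 in the table.

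Interferon transcripts themselves were rare. None of 8 interferon genes reached 100 counts. IFNL1, a type III interferon, had 0 counts with DMSO and 74 with DAC+SB in H1299, a log2 ratio of at least 4.67. In HCT116 its 2 and 72 counts gave 5.86 (3.95 to 8.93). IFNB1 had 34 counts in HCT116 DAC+SB, 1 in H1299 DAC+SB and 0 with DMSO. IFNG, which encodes interferon gamma, had 4 counts in HCT116 DAC+SB and 0 in the other 3 libraries. IFNE changed little in H1299, with 23 counts under DMSO and 29 with DAC+SB, for 0.38 (-0.46 to 1.24). It had 0 counts in both HCT116 libraries. The remaining interferon genes had at most 5 counts in any library.

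Most receptor and signalling genes that could be compared lay within 4-fold. Of 24, 19 could be compared in H1299 and 21 in HCT116, and their median log2 ratio was -0.12 and -0.13. IRF1 was at -0.20 (-0.35 to -0.04) in H1299 and, in HCT116, at 0.55 (0.41 to 0.68), and the kinase gene JAK2 at -0.62 (-0.82 to -0.42) and -0.37 (-0.64 to -0.10). The gamma receptor chain IFNGR1 was at 0.12 (-0.00 to 0.25) and 0.97 (0.85 to 1.10). By the 4-fold rule 2 genes were higher in each line, IRF7 and SOCS1, against 11.0% of all genes in H1299 and 9.63% in HCT116. IRF7, a factor that drives type I interferon genes, had values of 2.46 in H1299 and 3.94 in HCT116. SOCS1, an inhibitor of JAK kinases, had 4.01 and 3.63. In HCT116, 2 were lower, against 3.69% of all genes: IFNGR2 and IRF2. The receptor chain IFNGR2 was at -2.31 (just short of 4-fold with median-of-ratios scaling) and IRF2, a partial antagonist of IRF1, at -2.38. In H1299 these were at -0.92 and -0.70. Of the genes under 100 counts in both lines, IRF8, an interferon-responsive factor best known in myeloid and B cells, had 0 counts with DMSO in each, 21 in treated H1299 and 88 in treated HCT116, log2 ratios of at least 2.85 and at least 5.56. CIITA, the transactivator of MHC class II genes, was at 1.46 (0.03 to 3.10) and 1.63 (0.65 to 2.68). IRF9 was at -0.85 (-1.67 to -0.07) and -0.16 (-1.03 to 0.67).

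Of 20 other known targets of interferon gamma, 12 could be compared in H1299 and 11 in HCT116, with median log2 ratios of 0.40 and 0.09. In H1299, where 11.0% of all genes were 4-fold higher, 1 was, UBE2L6, the conjugating enzyme of ISG15, at 2.31. It was at 0.71 in HCT116. In HCT116, 3 were higher, against 9.63% of all genes: the immunoproteasome subunit genes PSMB8 (2.30) and PSMB9 (2.23) and the adhesion molecule gene ICAM1 (2.01). In H1299 they were at 0.92, 1.12 and 0.29. When the 5% of HCT116 cells with most counts, or cells with over 25% mitochondrial counts, were left out, both ICAM1 and PSMB8 were under 100 counts. PSMB8 was still past 4-fold, at 2.25 and 2.19, whereas ICAM1 was not, at 1.90 and 1.80. With numbered features counted only where both HCT116 libraries listed them, PSMB8 was at 0.77, also under 100 counts. None of those compared was 4-fold lower in either line, against 0.349% of all genes in H1299 and 3.69% in HCT116. The targets under 100 counts in both lines were uneven. The chemokine gene CXCL11 had 0 counts under DMSO in both lines, 40 in treated H1299 and 42 in treated HCT116, log2 ratios of at least 3.78 and at least 4.49. APOL3, an interferon-induced apolipoprotein L gene, had 1 and 15 counts in H1299, a log2 ratio of 3.95 (1.25 to 9.35). Its 2 and 33 counts in HCT116 gave 4.73 (2.76 to 7.84). XAF1 was at 3.46 or more in H1299, with 0 and 32 counts, CXCL9 at 2.05 or more there, with 0 and 12, and CXCL10 at 2.80 or more in HCT116, with 0 and 13. XAF1 had 2 and 6 counts in HCT116, for 2.27 (-0.21 to 5.61). CXCL9 had 0 counts in both HCT116 libraries, CXCL10 had 0 and 3 in H1299, and IDO1 had 2 counts in treated HCT116 and 0 elsewhere. APOL1 was at 1.19 (-0.46 to 3.06) in H1299, with 5 and 11 counts, and had 2 counts in each HCT116 library. TAP2 was not analysed here.

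Of 10 genes listed as other large GTPases, a loose label that IRGM does not strictly meet, 7 could be compared in each line. Of these, 1 was 4-fold higher in both, against 11.0% of all genes in H1299 and 9.63% in HCT116. This was IRGM, whose product acts in autophagy of bacteria and whose human promoter is known to lie in an ERV9 repeat. With DMSO and DAC+SB respectively, IRGM had 0 and 602 counts in H1299, a log2 ratio of at least 7.70. Its 3 and 757 counts in HCT116 gave 8.67 (7.11 to 10.95). The genes MX1, MX2 and GVINP1 stayed under 100 counts in every library. The interferon-induced GTPase gene MX1 was at 1.57 (0.69 to 2.52) in H1299, while HCT116 had 1.64 (0.76 to 2.58). MX2 was at 2.05 or more, with 0 and 12 counts, and at 3.01 (1.60 to 4.75). GVINP1, a pseudogene, had 15 and 3 counts in H1299, for -2.27 (-4.70 to -0.45), and 8 and 0 in HCT116. Of 14 genes for proteins that act on or with GBPs, 11 and 9 could be compared, and the prenylation enzymes were among those that were lower by less than 4-fold. FNTB and PGGT1B, which encode subunits of the farnesyl and geranylgeranyl transferases, were at -1.31 and -1.29 in H1299 and -1.44 and -1.45 in HCT116. FNTA, RCE1 and ICMT, listed genes of the same pathway, were lower by less. They were at -0.63, -0.34 and -0.24 in H1299 and -0.58, -0.55 and -0.88 in HCT116. GSDMD, the pore-forming gasdermin downstream of the GBP inflammasome pathway, was the 1 gene compared in this list past 4-fold in each line. It was higher in H1299 and lower in HCT116. Its HCT116 value of -2.01 was no longer past 4-fold with gene counts alone as the denominator (-1.93), median-of-ratios scaling (-1.70), cells of at most 25% mitochondrial counts (-1.99) or a mean over cells (-1.97). CASP5, an inflammatory caspase gene, had 0 and 31 counts in H1299, for 3.42 or more, and 2 and 15 in HCT116, for 3.59 (1.49 to 6.77). CASP4, an inflammatory caspase gene with more counts in H1299, went the other way there, from 802 to 323, at -1.26 (-1.46 to -1.08). In HCT116 CASP4 had 0 and 5 counts, for 1.42 or more. CASP1 had 5 counts in treated H1299 and 0 elsewhere, and AIM2 was not analysed here. Over the 7 lists of 87 genes, 57 could be compared in H1299, of which 5 (8.77%) were called higher against 11.0% of all genes, and 0 lower. In HCT116 56 could be compared, of which 6 (10.7%) were called higher against 9.63% of all genes, and 3 (5.36%) lower against 3.69%. Both shares of higher genes were near those of all genes. GTF2B, LRRC8D, LRRC8C, IFNL1, IFNB1, IFNG, IFNE, CXCL9, CXCL10, CXCL11, APOL1, APOL3, XAF1, IDO1, IRF8, IRF9, CIITA, CASP1, CASP4, CASP5, GVINP1, MX1, MX2, FNTA, FNTB, PGGT1B, RCE1 and ICMT were named after their values were seen.

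**Figure D3:**
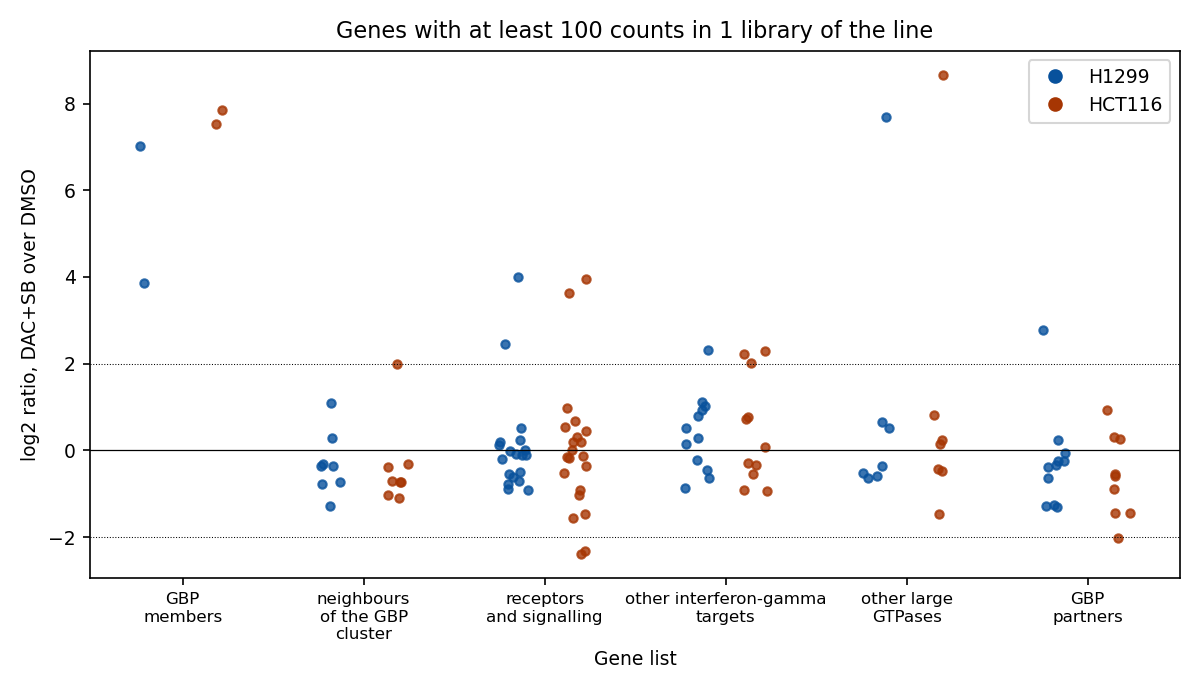
The log2 ratio of DAC+SB over DMSO of each gene with at least 100 counts in 1 library of the line, by list, with dotted lines at 4-fold; points are genes, spread sideways for legibility. The value of GBP2 in HCT116 and of IRGM in H1299 are lower bounds. Most receptor, target and partner genes lie within 4-fold, whereas GBP2, GBP5 in HCT116 and IRGM lie at or above 7.01.

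Because immune cells carry much GBP RNA, 9 immune markers were read in the same libraries, and CD68 was not analysed here. Without and with DAC+SB they summed to 0.372 and 10.0 CPM in H1299, with 4 and 7 of the 9 detected. HCT116 had 2.25 and 9.81 CPM, with 5 and 9 detected. The pan-leukocyte gene PTPRC was at 0 with DMSO and had 8 and 5 counts with DAC+SB. Of the 627 immune marker counts in treated H1299, 137 were of AIF1. PTPRC and AIF1 were named after their values were seen. The part of other cells in the GBP values was not tested. Fewer cells expressing a gene and less RNA per cell cannot be told apart in summed counts, so cells were examined next.

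GBP2 and GBP5 were detected in a minority of treated cells. Each cell was thinned at random to 3300 counts, which left out 402 HCT116 DAC+SB cells that had fewer. A GBP2 count was then found in 40 of 3726 H1299 DAC+SB cells, 1.07% (0.768 to 1.46), and in 137 of 3925 HCT116 DAC+SB cells, 3.49% (2.94 to 4.11). With DMSO it was found in 1 of 3578 H1299 cells and 0 of 3658 HCT116 cells, which allows a share of up to 0.0820% (3 cells) with a count at this depth, and sets no limit on cells that transcribe GBP2. GBP5 was found in 0.403% (0.225 to 0.663) of H1299 DAC+SB cells and 2.01% (1.60 to 2.50) of HCT116 DAC+SB cells, against 0.0838% and 0.0273% with DMSO. GBP3 was found in 0.447% (0.256 to 0.725) of H1299 DMSO cells and 0.0537% (0.00650 to 0.194) of H1299 DAC+SB cells. The treated shares of GBP2 and GBP5 thus lay above the control shares in HCT116, and in H1299 the intervals of GBP5 overlapped slightly (0.0173 to 0.245 with DMSO). No cell type known to lack GBP2 was analysed, so the control cells are the nearest measure of background.

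**Figure D4:**
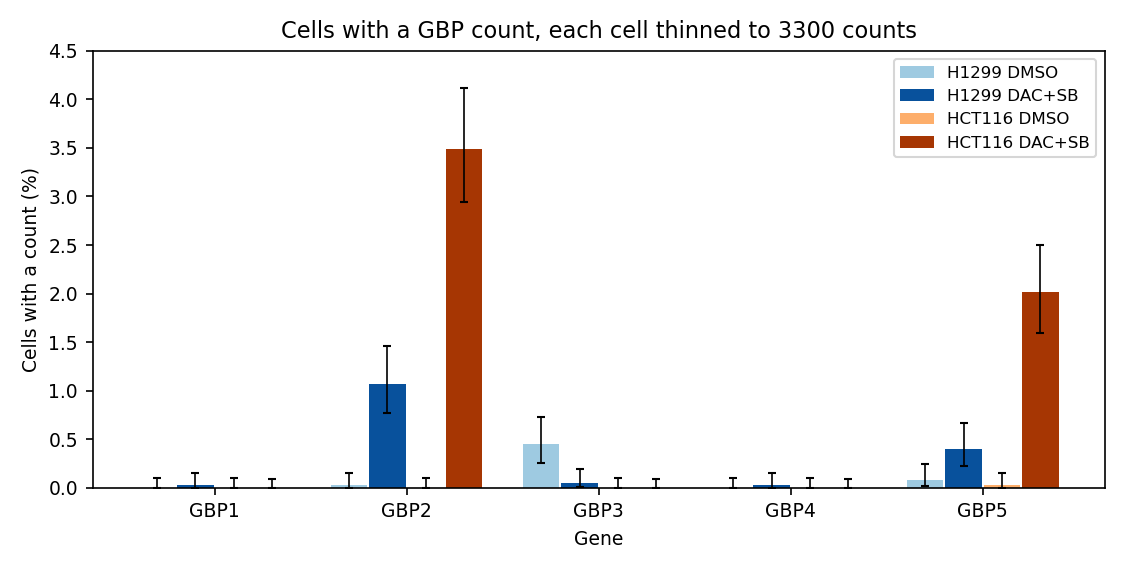
Percent of cells with a count of each gene after every cell was thinned to 3300 counts, by library, with exact Clopper-Pearson 95% intervals as error bars. GBP2 is highest, at 3.49% in HCT116 DAC+SB and 1.07% in H1299 DAC+SB, and GBP1 and GBP4 are at or near 0 in all libraries.

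At full depth a GBP2 count was present in 187 of 3726 H1299 DAC+SB cells (5.02%) and 321 of 4327 HCT116 DAC+SB cells (7.42%), and a GBP5 count in 2.60% and 4.32%. Of the GBP2 cells, 147 in H1299 and 238 in HCT116 had a single count, and the highest number in a cell was 9 and 5. The share of cells with GBP2 followed depth: over 4 groups of cells from shallowest to deepest it was 3.33%, 3.97%, 5.59% and 7.19% in H1299 and 3.60%, 5.65%, 9.05% and 11.4% in HCT116. The level of GBP2 in those groups had no such order, at 4.58, 3.35, 4.17 and 4.04 CPM in H1299 and 11.6, 10.6, 13.2 and 9.65 CPM in HCT116. The share of cells is therefore bounded by depth, and how many cells transcribed GBP2 was not measured.

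At full depth GBP2 and GBP5 both were present in 9 H1299 DAC+SB cells and 25 HCT116 DAC+SB cells. GBP2 was present in 9.28% (4.33 to 16.9) of the 97 H1299 cells with GBP5 and in 4.90% (4.23 to 5.66) of the cells without it. In HCT116 the shares were 13.4% (8.84 to 19.1) of 187 cells and 7.15% (6.38 to 7.98) of the rest. GBP2 was thus more frequent among cells with GBP5 in both lines, with intervals that overlapped in H1299 and did not in HCT116. Cells with both had a median of 17047 counts in H1299 and 12281 in HCT116, above the medians of their libraries, and the part of depth was not tested beyond the thinning. Thinned, both were present in 0 and 5 cells. In HCT116, GBP2 was then in 6.33% (2.09 to 14.2) of cells with GBP5 and 3.43% (2.88 to 4.06) of those without, intervals that overlap.

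Treated cells with a GBP2 count carried more LTR12C, a comparison added after the data were seen. LTR12C counts come from the deposited table of transposable elements and were at 186 CPM in H1299 and 314 in HCT116 with DMSO, against 18514 and 26268 with DAC+SB. Per 3300 counts, the 187 H1299 DAC+SB cells with GBP2 had a median of 87 LTR12C counts (interquartile range 48.5 to 134), and the 3539 cells without it 44 (24 to 76). In HCT116 DAC+SB the median was 105 (66.2 to 168) in 310 cells with GBP2 and 62 (36 to 108) in 3615 cells without. The ranges overlap widely between cells of either kind. The ratio of means was 1.83 in H1299 and 1.61 in HCT116. Cells with GBP2 were deeper, with medians of 18455 against 15659 counts in H1299 and 10524 against 9023 in HCT116. Their median share of mitochondrial counts was 7.72% against 8.94% and 16.1% against 18.0%. The part of depth between groups and of mitochondrial share was not tested. Within each of 4 groups of cells by depth the ratio lay between 1.60 and 2.09 in H1299 and between 1.60 and 1.70 in HCT116.

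The same ratio was computed for every gene with 100 or more and under 1000 counts in the treated library. Over the 1412 of them at least 4-fold higher in H1299 its median was 1.05 (interquartile range 0.973 to 1.15), and 8, GBP2 included, were at or above the value of GBP2. Over 1134 such genes in HCT116 the median was 1.03 (0.948 to 1.13), and 12 were at or above GBP2. In both lines 4 genes were so: GBP2, the potassium channel gene KCNN2, RP11-434C1.1 and RP5-1139I1.1, the last 3 named after their values were seen. None of 6583 and 7373 genes that were not 4-fold higher reached the value of GBP2 in H1299 or HCT116. IRGM had ratios of 1.58 in both lines. GBP5 did not follow GBP2 in H1299, with a ratio of 1.06 that 684 of the 1412 higher genes reached, and it had 1.23 in HCT116, which 142 of 1134 reached. Within the depth groups GBP5 ranged from 0.800 to 1.64 in H1299, where the groups held 9 to 45 cells with GBP5, and from 1.00 to 1.48 in HCT116. These are comparisons between cells of 1 library, which are not replicates, and which LTR12C copies contributed was not examined.

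**Figure D5:**
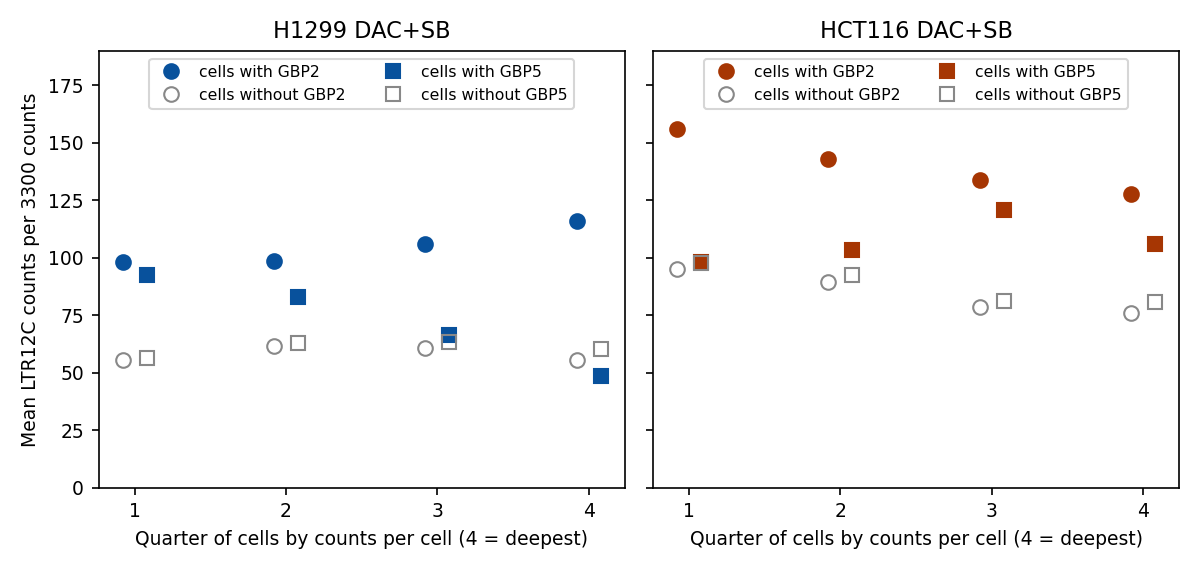
Mean LTR12C counts per 3300 counts in treated cells with (filled) and without (open) a GBP2 (circles) or GBP5 (squares) count, in 4 groups of cells by counts per cell. In each group cells with GBP2 lie above cells without it, at 98.1 against 55.5 in the shallowest H1299 group and 128 against 76.1 in the deepest of HCT116, whereas GBP5 cells in H1299 lie above in the 3 shallower groups and at 48.4 against 60.5 in the deepest.

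Genes with the pattern most like a member over the 4 libraries were taken by the root mean square difference of log2 CPM (3 counts added), each gene centred on its own mean, among 15504 genes. For GBP2 they were the zinc finger gene ZNF560 (0.11), the pluripotency-associated zinc finger gene ZFP42 (0.13) and the collagen gene COL14A1 (0.25). H1299 had 3 counts of ZNF560 with DMSO against 278 with DAC+SB, and HCT116 had 0 against 434. For GBP5 they were CTD-2246P4.1 (0.21), RN7SKP281 (0.22) and FTHL1 (0.29). GBP5 was 237th in likeness to GBP2, at 0.99. In LTR12C content of their cells, the 3 genes most like GBP2 had ratios of 1.20, 1.00 and 1.28 in H1299 and 1.08, 0.954 and 1.05 in HCT116, below the 1.83 and 1.61 of GBP2. Of the 3 genes most like GBP5, CTD-2246P4.1 had ratios of 1.70 and 1.52, FTHL1 of 1.52 and 1.27, and RN7SKP281 of 1.08 and 1.09, all above the 1.06 of GBP5 in H1299. In HCT116 CTD-2246P4.1 and FTHL1 were above the 1.23 of GBP5.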

How the data were processed

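Single-cell RNA was captured with 5′ chemistry, per the labels' protocols, in 4 libraries, 1 per line and treatment. Whole-number counts were deposited in 2 tables, 1 for gene features and 1 for transposable elements, with 1 line per feature and cell. The submitters' processing notes name STAR, CASAVA and GRCh38 without a role. The counting tool, the annotation, the filter on cells and whether counts are of molecules were not given in the sources used here. Cells were assigned to libraries by the library name in the cell name.

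All 15289 cells had at least 500 counts and were used, and no doublet caller was run. Counts were summed per library over features that name 1 gene and divided by the library's gene and element counts. The ratio is DAC+SB over DMSO, with an exact conditional binomial interval. A gene at 0 was set to 3 counts, which makes its ratio a bound. Levels carry exact Poisson and shares Clopper-Pearson 95% intervals. Counting was not shown to use strand. With 1 library per group no test was run. Members, lists and rules were chosen with earlier results of these data known. The genes named are all members, the 3 genes most like a member with at least 100 counts, the other GBP genes, listed genes past 4-fold, and IRF1, JAK2 and IFNGR1, beside those said in the text to be named after their values were seen. Some items are not reported here. The ratio code was tested on simulated data. Python 3.11.15, NumPy 2.4.6 and SciPy 1.17.1 were used.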

Additional observations from a re-analysis of the deposited data

Results flagged for a closer look

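GSDMD, the gasdermin gene, had opposite directions in the 2 lines. In H1299 it had 39 counts with DMSO and 257 with DAC+SB, and its log2 ratio was 2.77 (2.28 to 3.29). HCT116 had 1616 counts with DMSO and 249 with DAC+SB, for -2.01 (-2.21 to -1.82). The HCT116 value was between -1.99 and -1.70 under 4 alternatives, which ends its 4-fold call. The difference between the lines was not tested, as each group has 1 library.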

How the results depend on the processing

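No paired analysis was possible because each group has 1 library. Across 161 alternative values of 21 results 140 stayed within counting error or, for counts of genes, within 1.5 times. No log2 ratio changed sign, whereas counts of genes and shares have no direction to change. The changes of denominator shifted every log2 ratio of a line alike, by at most 0.31, so they could not reverse ratios of this size. In HCT116, median-of-ratios scaling raised every log2 ratio by 0.31 (0.18 in H1299), which put GBP2 at 8.16 and left 1 in place of 3 related genes at least 4-fold lower. GBP5 fell to 2.77 in H1299 and 5.08 in HCT116 with 9 counts given to its unlisted feature, an alternative added after seeing the data. Counting numbered features only where both libraries of a line listed them left 1 member called higher in each line, and leaving out the 5% of cells with most counts left 1 in H1299, where GBP5 then had under 100 counts. With a minimum of 20 counts, or none, 1 member, GBP3, was lower in H1299 in place of 0. Related genes called higher in H1299 were 8 at 2-fold, 10 with at least 20 counts and 13 with no minimum, against 5. In HCT116 they were 12 and 15 with these minimums, against 6. The share of all genes called higher rose too. In H1299 it was 18.3% at 2-fold and 19.9% with at least 20 counts, against 11.0%. In HCT116 it was 18.6% with at least 20 counts, against 9.63%. With no minimum the share of all genes was not computed. How many related genes could be compared with the lower minimums is not given, so nothing specific to them is read from these rises. Related genes called lower in H1299 were 4 at 2-fold and 1 with no minimum, against 0, and in HCT116 11 at 2-fold, against 3. Of all genes in H1299, 7.34% were lower at 2-fold, against 0.349% at 4-fold. In HCT116 these were 2706 and 500 of 13539 genes. Without thinning, GBP2 was found in 5.02% and 7.42% of H1299 and HCT116 DAC+SB cells, against 1.07% and 3.49%, and GBP5 in 2.60% and 4.32%, against 0.403% and 2.01%. Depth limits GBP1, GBP4 and HCT116 GBP3, which had at most 3 counts.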
